A study of Homo sapiens with 6 samples.

Results

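FGA, FGB, AMBP and PCK1 are 4 genes of the hepatocyte programme whose transcripts carried an m6A peak under 1 treatment only in MHCC97H cells. They were chosen by the peak calls themselves: each had at least 1 row in 1 of the 2 deposited peak tables and none in the other. The 4 genes hold 6 peaks, among 16810 genes with a peak in either table. MHCC97H is a human hepatocellular carcinoma cell line. One set of cells received FB23-2, which inhibits the demethylase FTO, at 2 µM, and the other the vehicle DMSO; both were harvested after 48 h, and there were 3 samples per treatment. Methylated RNA immunoprecipitation sequencing (MeRIP-seq) was used to look for transcripts that FB23-2 acts on through FTO. Each treatment is represented by 1 table with no column for a sample, which was taken as the pooled list of its 3 samples. No value below therefore has a replicate error, and no difference between treatments could be tested. The fold change and p of each peak are the authors' own.

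N6-methyladenosine (m6A) is a methyl mark on adenosines of messenger RNA, laid down by the METTL3 and METTL14 complex, removed by FTO and ALKBH5, and read by YTH domain proteins that alter the decay and translation of the transcript. In MeRIP-seq, fragmented RNA is pulled down with an antibody against m6A, and a peak is a stretch where the pulled-down fragments outnumber those of the input. A peak call therefore needs both the mark and enough RNA from the gene. FGA and FGB encode the alpha and beta chains of fibrinogen, the clotting protein that hepatocytes secrete into plasma as a complex with the gamma chain, FGG. AMBP encodes a precursor that is cleaved into alpha-1-microglobulin, a haem-binding lipocalin, and bikunin, a protease inhibitor. PCK1 encodes the cytosolic phosphoenolpyruvate carboxykinase, the enzyme that commits oxaloacetate to gluconeogenesis. Glucagon and insulin control its transcription in the liver.

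Of the 4 genes, the fibrinogen chains had their peaks under FB23-2 and AMBP and PCK1 had theirs under DMSO. FGA had 1 peak in the FB23-2 list and 0 in the DMSO list, and FGB likewise had 1 and 0. AMBP had 0 in the FB23-2 list and 1 in the DMSO list, and PCK1 had 0 and 3. Over all genes, 652 of the 16003 with an FB23-2 peak had none under DMSO (4.07%), and 807 of the 16158 with a DMSO peak had none under FB23-2 (4.99%). Counted together, 1459 of 16810 genes (8.68%) were found in 1 list only. The members were picked for this state, so nothing is read from their own count. The absence held by position as well as by name: within the gene span of each member, the list that lacked it held 0 peaks on either strand, whatever gene they were assigned to. None of the 6 peaks shared a base with a peak of the other list.

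**Figure D1:**
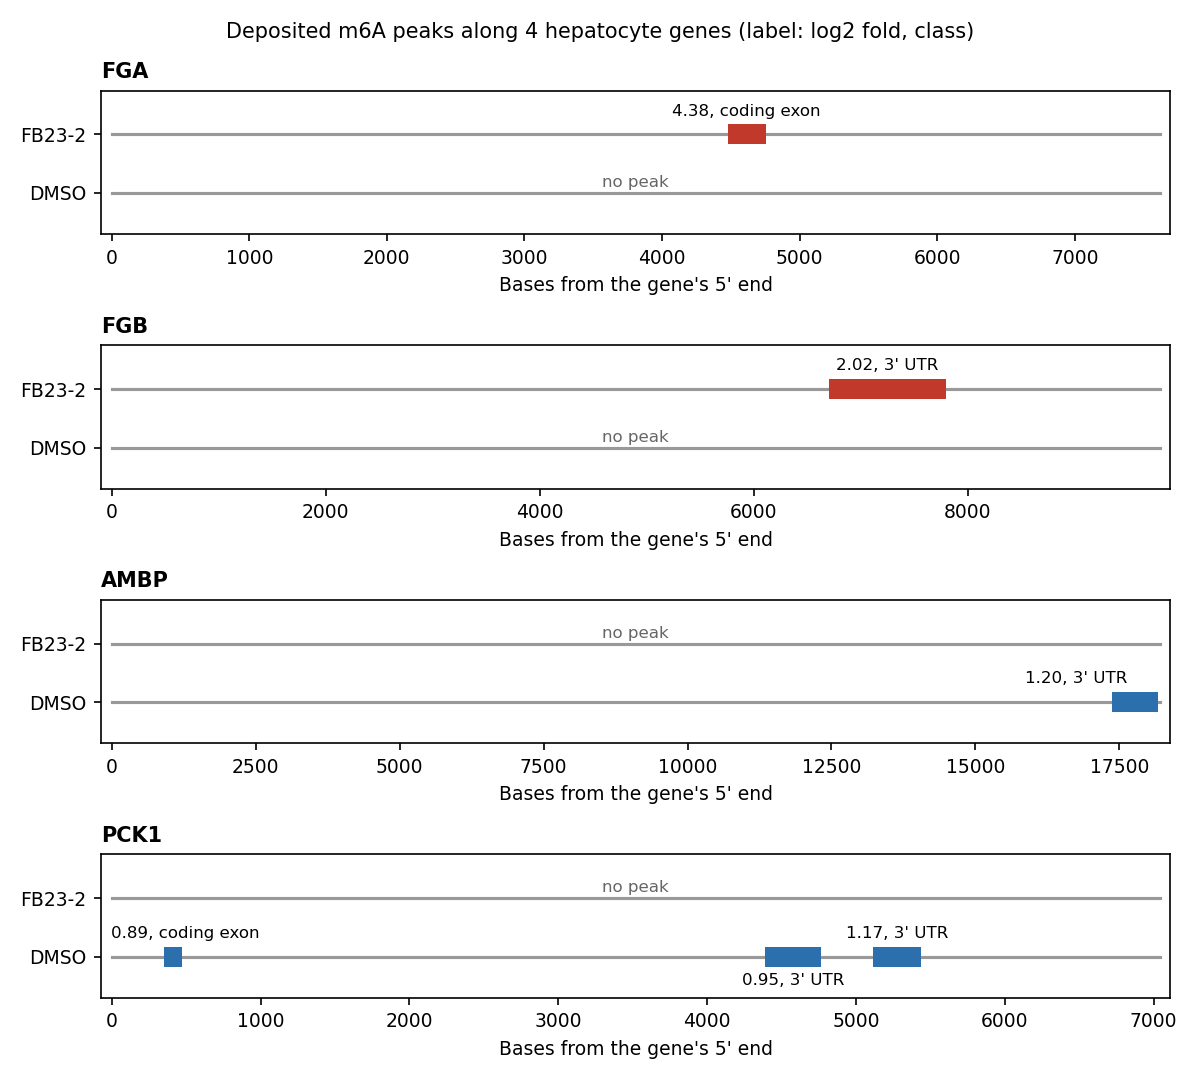
Deposited m6A peaks (boxes, to scale) along FGA, FGB, AMBP and PCK1, by distance in bases from the gene's 5′ end, with the FB23-2 list above the DMSO list. Each box carries its log2 fold change and annotation class; FGA and FGB have boxes in the FB23-2 row only, AMBP and PCK1 in the DMSO row only.

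The FGA peak was the most enriched of the 6. It covered chr4:154585994-154586268 on the minus strand (GRCh38), a span of 275 bases in a coding exon, 4477 bases from the 5′ end of a gene of 7618 bases. Its log2 fold change was 4.38, or 20.8-fold, taken here as immunoprecipitate over input, and its p was 1.39e-12 (adjusted p 2.37e-12, as deposited). By fold it ranked 1024 of 41838 FB23-2 peaks, within the top 2.45%. By p it ranked only 24630, so the peak was strongly enriched and of middling significance. Of the 500 FB23-2 peaks nearest to it in fold, 442 (88.4%) had a smaller p. The table holds no read counts, so the number of fragments behind the peak was not analysed here.

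FGB lies on the same chromosome and the opposite strand. Its peak covered chr4:154569715-154570808 on the plus strand, a span of 1094 bases classed as 3′ UTR, which ended 1999 bases before the 3′ end of the gene as deposited. The log2 fold change was 2.02, or 4.05-fold, with a p of 1.26e-09 (adjusted p 1.91e-09). This fold lay just above the 4-fold level that is used below as a stricter threshold. It ranked 12566 by fold and 27756 by p of 41838 peaks, and 403 of the 500 peaks of nearest fold (80.6%) had a smaller p. The FGB and FGA peaks are separated by 15185 bases, with no other peak between them in the FB23-2 list. FGG, the remaining gene of this cluster, had no peak in either list, so a peak was called in 2 of the 3 fibrinogen genes.

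The neighbouring gene on the cluster's flank had peaks under both treatments. PLRG1, a spliceosome component, had 3 FB23-2 peaks and 4 DMSO peaks, and 3 of each overlapped one of the other list. The DMSO peaks nearest to FGB and FGA belong to PLRG1, 23516 and 39795 bases away.

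AMBP had its single peak at the very end of the gene. The peak covered chr9:114060152-114060965 on the minus strand, a span of 814 bases classed as 3′ UTR, and ended 25 bases before the 3′ end of a gene of 18202 bases. Its log2 fold change was 1.20, or 2.31-fold, with a p of 0.000231 (adjusted p 0.000277). It ranked 25877 by fold and 36477 by p of 42813 DMSO peaks, so it was among the weaker 15% by p. A larger p than that of the AMBP peak was held by 4889 peaks of the FB23-2 list and 6336 of the DMSO list. ZNF618, a zinc finger gene that runs towards AMBP on the other strand, had 8 peaks in each list, and its last one lay 3569 bases from the AMBP peak in both.

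PCK1 was the member with several peaks, all in the DMSO list and all of low fold. The first covered chr20:57561430-57561554 on the plus strand, 125 bases in a coding exon and 350 bases from the 5′ end, with a log2 fold change of 0.89 and a p of 0.0423 (adjusted p 0.0433). The other 2 were classed as 3′ UTR. The upstream one, chr20:57565469-57565843, spanned 375 bases with a log2 fold change of 0.95 and a p of 5.73e-05. The downstream one, chr20:57566194-57566518, spanned 325 bases with a log2 fold change of 1.17 and a p of 0.000311. Only 350 bases separate these last 2 peaks, so they can be 1 region cut in 2. They ended 2278 and 1603 bases before the 3′ end of the gene as deposited.

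The PCK1 coding peak was close to the limit of the list. It ranked 42632 of 42813 DMSO peaks by p, and each of the 500 peaks nearest to it in fold had a smaller p. A larger p was held by 54 peaks of the FB23-2 list and 181 of the DMSO list, and the largest p deposited was 0.0499 in both lists. PCK1 would be a single-list gene without this peak too, since its 3′ UTR peaks were the stronger ones. No FB23-2 peak lay closer than 72402 bases to any of the 3, and the nearest belonged to the pseudogene HMGB1P1, whose single peak was in both lists with log2 folds of 3.26 under FB23-2 and 3.31 under DMSO.

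How often a gene was found in 1 list only differed with its number of peaks. Of genes with exactly 1 FB23-2 peak, as FGA and FGB have, 10.1% (581 of 5780) had none under DMSO. Of genes with exactly 1 DMSO peak, as AMBP has, 11.9% (689 of 5778) had none under FB23-2. Of genes with exactly 3 DMSO peaks, as PCK1 has, 0.719% (19 of 2644) had none under FB23-2. Most single-list genes had 1 peak: 89.1% of the 652 FB23-2-only and 85.4% of the 807 DMSO-only genes. The 3 PCK1 peaks come from the same RNA and the same libraries and are not independent calls. PCK1 was chosen for its state, and the genes with 3 DMSO peaks were not matched to it in p. No rarity of PCK1 is therefore read from that share.

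The spans carry some detail on where the peaks lie. Spans in both lists often came in steps of 25 bases, with 55.8% of FB23-2 and 55.7% of DMSO spans a whole multiple of 25. The FGA peak (275 bases) and the 3 PCK1 peaks (125, 375 and 325 bases) were such multiples, while those of FGB (1094 bases) and AMBP (814 bases) were not. A span counts any intron between its ends, and the exon structure was not used here, so it was not tested whether the FGB and AMBP peaks cross an intron. In class, 4 of the 6 peaks were 3′ UTR and 2 coding exon, beside 57.3% 3′ UTR in each list and 12.8% coding exon in the FB23-2 and 12.9% in the DMSO list.

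**Figure D2:**
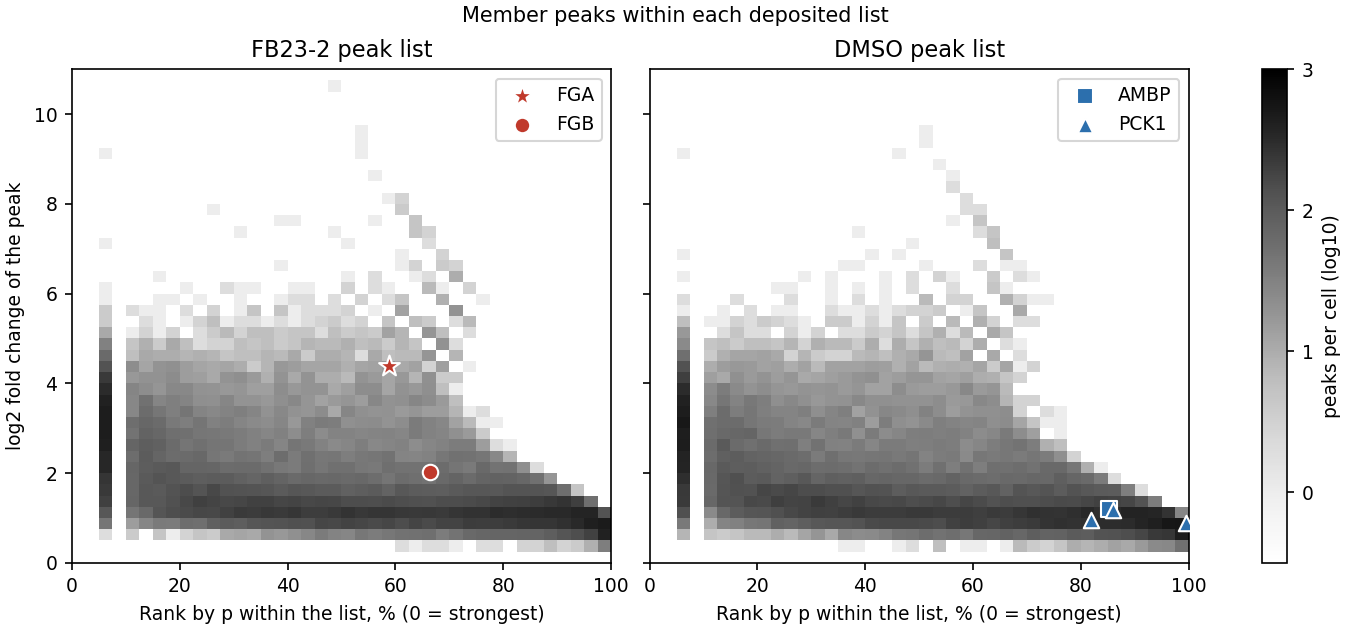
Log2 fold change of every deposited peak against its rank by p, in percent of the list (0 is the strongest; peaks tied at a p of 0 share a mean rank), for the FB23-2 list (left) and the DMSO list (right). Shading gives peaks per cell on a log10 scale; FGA stands at high fold with a rank of 58.9%, FGB at 66.3%, and AMBP and PCK1 lie low and between 81.9% and 99.6%.

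The share of peaks with a partner in the other list was read at the strength of each member peak. For each member peak, the 500 peaks of its own list nearest in p were taken, and those overlapped on the same strand by a peak of the other list, over at least 50% of the shorter, were counted. For FGA 421 of 500 (84.2%, 95% interval 80.7 to 87.3) had such a partner, and for FGB 376 (75.2%, 71.2 to 78.9). For AMBP the count was 260 (52.0%, 47.5 to 56.5). For the 3 PCK1 peaks in order it was 119 (23.8%, 20.1 to 27.8), 301 (60.2%, 55.8 to 64.5) and 259 (51.8%, 47.3 to 56.3). These are exact (Clopper-Pearson) intervals that cover the counting of peaks only. The shares describe other peaks of like p, since the members were chosen for having no peak in the other list.

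Matching on fold in place of p gave higher shares for each of the 6 peaks, with the largest move for the PCK1 coding peak. Among the 500 peaks nearest in fold to the PCK1 coding peak 67.0% had a partner, against 23.8% by p, so most like peaks had a partner by the one measure and lacked one by the other. For AMBP the share was 78.8% by fold and 52.0% by p, and for the downstream 3′ UTR peak of PCK1 78.0% by fold and 51.8% by p. The upstream one moved little, with 64.4% by fold and 60.2% by p. For FGB it was 93.4% by fold and 75.2% by p, and for FGA 91.0% by fold and 84.2% by p. Among the 500 peaks nearest in fold and p together, a comparison chosen after seeing the data, the share was 68.8% for FGA, 86.2% for FGB, 53.2% for AMBP, and 24.8%, 58.2% and 50.8% for the 3 PCK1 peaks in order.

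**Figure D3:**
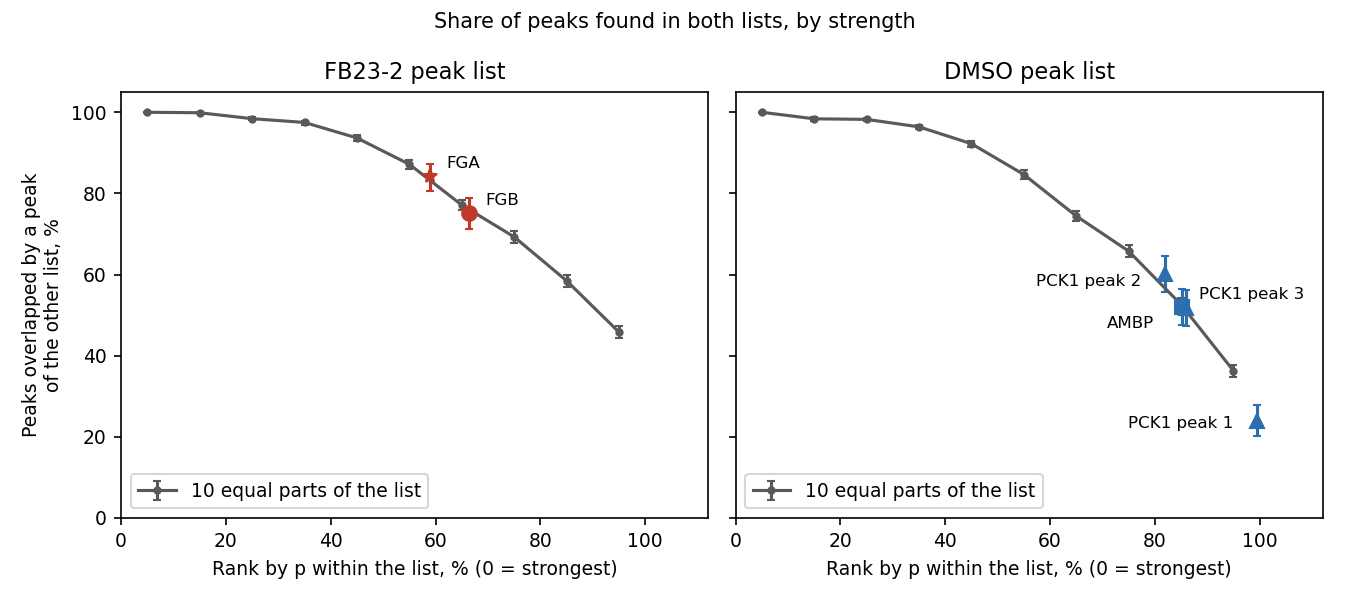
Share of peaks overlapped by a peak of the other list, in percent, in 10 equal parts of the list ranked by p (grey, 0% is the strongest end) and for the 500 peaks nearest in p to each member peak (coloured symbols), with exact 95% intervals; FB23-2 list left, DMSO list right. The share falls to 45.8% in the weakest part of the FB23-2 list and 36.3% in that of the DMSO list, and the PCK1 coding peak lies lowest of the 6 at 23.8%.

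Set beside other single-list genes, the fibrinogen chains and the DMSO-side members lay at different levels. FGA ranked 132 and FGB 236 of 652 FB23-2-only genes by the smallest p of a gene, whose median was 6.24e-08. PCK1 ranked 527 and AMBP 579 of 807 DMSO-only genes, whose median was 3.04e-07. FGA and FGB thus lay on the stronger side of the median of their group, and AMBP and PCK1 on the weaker side. Genes found in both lists were called with far smaller p, with a median of 8.33e-85 in the FB23-2 and 7.33e-93 in the DMSO list. Those with 1 peak in the list in question had medians of 1.72e-39 in the FB23-2 list and 1.60e-46 in the DMSO list.

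Among genes with the same number of peaks in the same list and none in the other, those nearest to each member in the log2 fold of the most significant peak were the following. For FGA they were ZNF365 (4.38, coding exon) and the noncoding RNA LINC02518 (4.37), of 581 genes. For FGB they were LRRC26, an auxiliary subunit of BK potassium channels (2.02, 5′ UTR), and the noncoding RNA PCAT19 (2.02). For AMBP, of 689 genes, they were the axon guidance receptor ROBO2 (1.20, intron) and the noncoding RNA LINC02067 (1.20). For PCK1, of 19 genes, they were the peroxisomal reductase PECR (0.93, 3′ UTR) and the adaptor SORBS2 (1.01, 3′ UTR), against 0.95 in PCK1. The likeness is in peak number and fold only.

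Most genes of the hepatocyte programme, 90 of 146 over 5 lists, had no peak under either treatment. Of 10 hepatocyte markers, 7 had none in either list: ALB (albumin), TTR and TF (transport proteins), APOA1 and APOB (apolipoproteins), SERPINA1 (alpha-1-antitrypsin) and FGG. HNF4A, the nuclear receptor at the head of the programme, was the only one with peaks in both, 4 under FB23-2 and 3 under DMSO. FGA and FGB were the other 2. The tables list no input level, so a transcript with too little RNA for a call, one without the mark and one in which the mark missed the threshold cannot be told apart here.

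**Figure D4:**
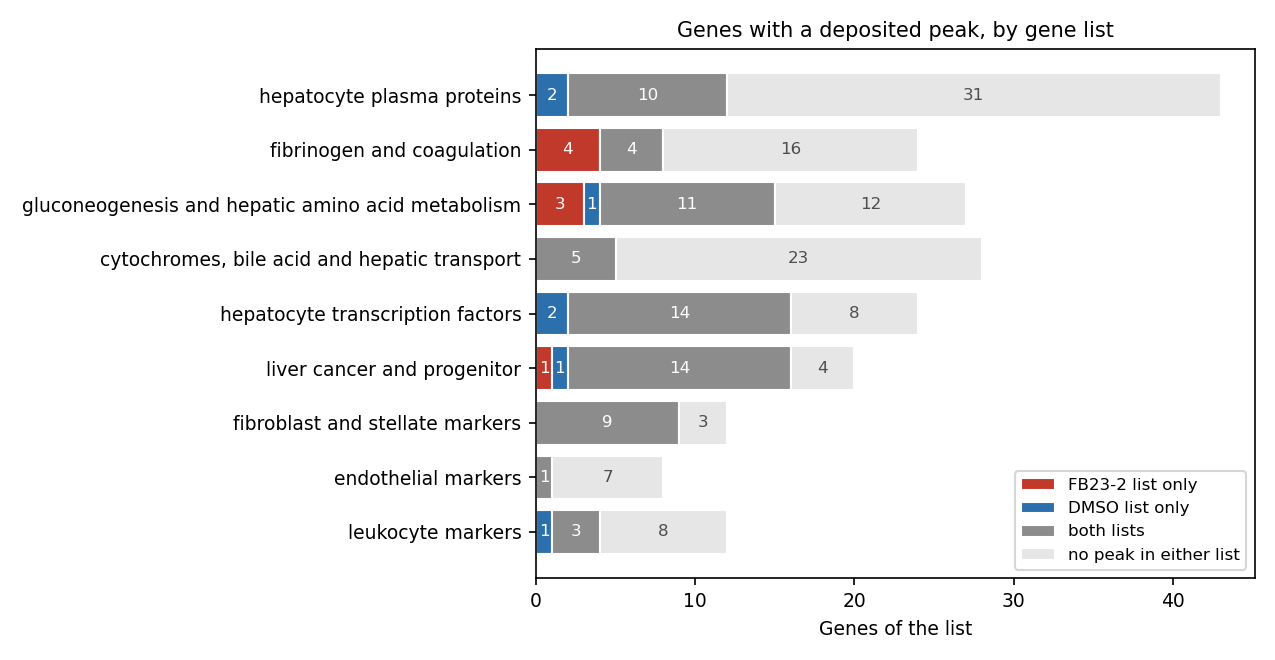
Number of genes of each of 9 lists with a peak in the FB23-2 list only, the DMSO list only, both lists or neither. Single-list genes of the fibrinogen and coagulation list are all on the FB23-2 side (4), those of the plasma proteins and of the transcription factors all on the DMSO side (2 each). FGA and FGB are among those 4 and AMBP among the plasma proteins by choice, so the sides are partly set in advance. Over all genes with a peak, 8.68% were in 1 list only.

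Of the 146 genes, 56 had a peak, of which 44 were in both lists, 7 in the FB23-2 list only and 5 in the DMSO list only. That is 21.4% of genes with a peak in 1 list only, beside 8.68% over all genes. Without the 4 members it was 8 of 52 (15.4%). The higher share in the hepatocyte lists was not kept at every threshold. Where both lists were cut at 4-fold, 6 of 32 hepatocyte-list genes (18.8%) were in 1 list only, beside 1984 of 10232 genes in all (19.4%). With the 33470 most significant peaks of each list it was 5 of 46 (10.9%), beside 1399 of 15965 (8.76%). Without the members, a comparison chosen after seeing the data, these shares were 4 of 30 (13.3%) at 4-fold and 3 of 44 (6.82%) with equal numbers of peaks, both below the share of all genes. At an adjusted p under 0.001 it was 10 of 52 (19.2%), beside 8.63% over all genes. The lists were drawn up with results of these data known, and the share is a description.

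In fibrinogen and coagulation, 8 of 24 genes had a peak. Beside FGA and FGB, SERPINF2 and FGL1 were found under FB23-2 only. SERPINF2, the plasmin inhibitor alpha-2-antiplasmin, had 1 peak with a log2 fold change of 2.74 and a p of 1.25e-07, in the 3′ UTR. FGL1, a fibrinogen-like protein secreted by the liver, had 2 peaks, the stronger with 1.20 and a p of 0.00499. The coagulation factors F10 and F12, and PROC and PROS1, the anticoagulant proteins C and S, were in both lists. F10 had 1 peak in each, with log2 folds of 3.67 under FB23-2 and 3.16 under DMSO, and F12 1 peak in each with 1.68 under FB23-2 and 1.78 under DMSO. No gene of this list was found under DMSO only. Of the 8 genes with a peak, 4 were in 1 list only, beside 8.68% over all genes. FGA and FGB are among those 4 by the choice of members, so the FB23-2 side is partly set in advance. No preference of coagulation genes for 1 treatment is therefore read from this list.

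Among plasma proteins, 12 of 43 genes had a peak, and AMBP and VTN were the 2 single-list genes, both under DMSO. That is 16.7% of those with a peak, with AMBP counted by the choice of members, beside 8.68% over all genes. VTN, vitronectin, had a 3′ UTR peak with a log2 fold change of 1.58 and a p of 1.91e-10, more significant than that of AMBP. Genes in both lists included complement C3, whose most significant peak had a log2 fold change of 1.72 under FB23-2 and 1.80 under DMSO. The same values were 3.89 under FB23-2 and 4.08 under DMSO for LRG1, a secreted glycoprotein, and 2.74 under FB23-2 and 2.27 under DMSO for angiotensinogen, AGT. Apolipoprotein E, APOE, had 2.92 under FB23-2 and 3.90 under DMSO. RBP4, the plasma retinol carrier, had 1 weak peak under each treatment, with a p of 1.08e-05 under FB23-2 and 0.00126 under DMSO, the second weaker than that of AMBP, and the 2 overlapped.

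In gluconeogenesis and hepatic amino acid metabolism, 15 of 27 genes had a peak, and PCK1 was the single gene found under DMSO only. Of those with a peak, 26.7% were in 1 list only, with PCK1 counted by the choice of members, beside 8.68% over all genes. FBP2 (fructose bisphosphatase of muscle type), HPD (tyrosine breakdown) and GNMT (glycine methylation) were found under FB23-2 only, with 1 peak each and log2 folds of 1.54, 1.35 and 1.84. The mitochondrial isoform PCK2 was in both lists, with 2 FB23-2 and 4 DMSO peaks and log2 folds of 2.81 under FB23-2 and 2.66 under DMSO in the most significant ones. Pyruvate carboxylase, PC, which makes the oxaloacetate that PCK1 uses, had 3 FB23-2 and 4 DMSO peaks, with 3.99 under FB23-2 and 4.11 under DMSO at a deposited p of 0. GLS2, a liver glutaminase, was in both lists by gene, with 1 peak in each, but the 2 peaks were not partners. They abut without sharing a base, at chr12:56477664-56478002 under FB23-2 and chr12:56475931-56477663 under DMSO, both classed as 3′ UTR. The p of the GLS2 peak was 0.00474 under FB23-2 and 0.00233 under DMSO.

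Of the transcription factors that drive the hepatocyte programme, 16 of 24 had a peak and 14 had one in both lists. The share in 1 list only was 12.5%, beside 8.68% over all genes. CREB3L3, a liver-enriched activator of fasting and acute-phase genes, was found under DMSO only (log2 fold change 2.29, p 5.4e-11), as was HNF4G (0.56, p 0.038). CEBPB, an activator of acute-phase genes and of PCK1, had 2 FB23-2 and 3 DMSO peaks, with 3.20 under FB23-2 and 3.49 under DMSO in the most significant. Of the activators of PCK1 in fasting, FOXO1 had 4 FB23-2 and 5 DMSO peaks and PPARGC1A had 4 in each list. All of the 5 cytochrome, bile acid and transport genes with a peak were in both lists, among them SLCO1B3, a hepatic uptake transporter (3 FB23-2 and 1 DMSO peaks). With 5 genes, nothing is read from this beside the 8.68% over all genes.

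The pathway column of the tables gives the other genes of the members' pathways. It holds 14 terms with a member, and each therefore has at least 1 single-list gene by the choice of members. With the members counted, the share of genes in 1 list only ran from 1.72% to 18.4%. By that count 2 of the 14 terms lay above the 8.68% of all genes. FGA and FGB share the term complement and coagulation cascades, the highest at 18.4%, in which 38 genes had a peak: 31 in both lists, 4 under FB23-2 only (FGA, FGB, SERPINF2 and C8G) and 3 under DMSO only (VTN, THBD and F8). FGA and FGB enter this share and the FB23-2 side by choice. Without them the DMSO-only genes of the term outnumber the FB23-2-only ones, and the share was not computed. They also share platelet activation, where 77 of 82 genes were in both lists and 6.10% in 1 only.

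Of the 12 terms with PCK1, that of glycolysis and gluconeogenesis was the other one above the share of all genes, at 9.80%. There PCK1 was 1 of 5 single-list genes of 51, with LDHAL6B also under DMSO and FBP2, PGAM1 and PGAM2 under FB23-2. PCK1 counts in that share by the choice of members, and the share without it was not computed. The place of this term above all genes is therefore not read as a result. Reads shared with near-identical gene copies were not analysed here for any of these genes. PCK1 was the only single-list gene of the 29 in the citrate cycle (3.45%). In insulin signalling, the lowest at 1.72%, 114 of 116 genes were in both lists, and PCK1 and FBP2 were the other 2. DMSO-only genes outnumbered FB23-2-only ones in 10 of the 14 terms. All 10 hold PCK1, which was chosen for being DMSO-only, so this count is partly set by that choice. Over all genes, too, DMSO-only genes were the more numerous, 807 against 652. In the citrate cycle, adipocytokine signalling and proximal tubule bicarbonate reclamation, PCK1 was the only single-list gene. PI3K-Akt signalling had 6 FB23-2-only and 13 DMSO-only genes of 237 (8.02%), FoxO signalling 1 and 5 of 118 (5.08%), and AMPK signalling 1 and 5 of 107 (5.61%). These terms share genes, among them PCK1 and IGF1 under DMSO only.

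Markers of other cell types had peaks too. Of 12 fibroblast and stellate cell genes, 9 had a peak, all in both lists, with 32 FB23-2 and 41 DMSO peaks in all. COL1A1, a collagen chain, had 8 under FB23-2 and 11 under DMSO. Of 8 endothelial genes only CDH5 had a peak (1 under FB23-2 and 3 under DMSO), and of 12 leukocyte genes 4 did, with 7 peaks under each treatment. Of 20 liver cancer and progenitor genes 16 had a peak, 14 in both lists, while AFP had none in either. Over all genes with a peak, 8.68% were in 1 list only. The part of these cell type markers in the calls of the 4 genes was not tested.

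Stricter thresholds separate the fibrinogen chains from the other 2 genes. At an adjusted p under 0.001 all 4 genes kept their single-list state, PCK1 with 2 peaks. Where both lists were cut at 4-fold, and also with the 33470 most significant peaks of each list, FGA and FGB each kept their FB23-2 peak, whereas AMBP and PCK1 had 0 peaks in both lists. The loss at 4-fold follows from the folds of their peaks, 2.31 for AMBP and at most 2.26 for PCK1. FGB passed narrowly, at 4.05-fold. Of 42813 DMSO peaks, 12514 reached 4-fold. The loss among the most significant peaks likewise follows from rank by p. By p, the AMBP and PCK1 peaks ranked from 81.9% to 99.6% of the DMSO list, its weaker end. By fold they ranked from 60.4% to 85.0%.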

How the data were processed

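MeRIP-seq peak tables of MHCC97H cells, 1 per treatment (3 samples each), were used as deposited. An m6A antibody was applied to fragmented poly(A) RNA, per the labels' protocols. GRCh38, HISAT2 and Cuffdiff are named, per the submitters' processing notes; which peak caller was used is not given in the sources used here. Each log2 fold change, p-value and adjusted p-value was deposited by the authors; immunoprecipitate over input is assumed, and read depth is unknown. Deposited starts count from 0 and are given 1-based.

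Members were matched by gene name, genes by identifier. Overlap used bedtools 2.31.1. Python 3.11.15 with pandas 2.3.3, numpy 2.4.6, scipy 1.17.1 and matplotlib 3.10.9 did the rest, and the overlap step was tested on simulated data. The members, the 9 gene lists and the naming rule were chosen with earlier results of these data known. The rule names the members, single-list genes of the lists, up to 4 genes per list found in both, 6 fixed genes and the 2 genes most like each member. Not every gene is printed, and genes named outside it were chosen after their values were seen. Alternatives were thresholds, equal list lengths, matching by position and other overlap rules. List symbols were checked against RefSeq (GRCh38.p14). The peaks' own sequences were not analysed here, and some results are not reported here.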

Additional observations from a re-analysis of the deposited data

How the results depend on the processing

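No paired analysis was possible because neither table names a sample or replicate; leaving out replicates was not run for the same reason. At an adjusted p under 0.001, no count moved by over 1.5 times. At a fold of at least 4 AMBP and PCK1 had 0 DMSO peaks, FB23-2-only genes numbered 1017 of 10232 in all, and hepatocyte-list genes 4 (FB23-2 only) and 2 (DMSO only) of 32, a share of 18.8% beside 19.4% over all genes. With equal numbers of top peaks AMBP and PCK1 again had 0, and hepatocyte-list genes 3 and 2 of 46 (10.9%, beside 8.76% over all genes). Both settings keep fewer peaks by construction, and the 1017 include genes whose DMSO peak fell below that fold. At the deposited threshold, leaving out the 4 members lowered DMSO-only hepatocyte-list genes to 3 of 52, since AMBP and PCK1 are 2 of the 5. Any overlap, reciprocal overlap and strand ignored left all 6 member peaks without a partner, and matching by position changed no member count. The share with a partner among peaks nearest in fold was 91.0% for FGA, 93.4% for FGB, 78.8% for AMBP and 67.0% and 78.0% for the PCK1 coding peak and downstream 3′ UTR peak. Nearest in p and fold together, it was 68.8% for FGA and 86.2% for FGB. For the shares of like peaks the cause was not tested.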
